A study of Homo sapiens with 5 samples.

Results

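Septins are GTP-binding proteins that assemble into filaments, and 9 genes of the family were followed across the 5 Affymetrix exon arrays of a study of the scaffold protein NEDD9 in human lung cancer cell lines. The members are SEPTIN2, SEPTIN3, SEPTIN4, SEPTIN6, SEPTIN7, SEPTIN8, SEPTIN9, SEPTIN10 and SEPTIN11. They were found by symbol among features annotated with exactly 1 gene, and they are 9 of the 14232 genes so measured. Where a gene has several features the brightest by mean over the 5 arrays is taken, but every member had a single feature, so brightness chose none of the values below. The family was chosen by name when the knockdown difference of SEPTIN7 was already known, so differences of its members are given as descriptions with no test of their own. The arrays were made from A549 cells with the hairpin shNEDD9 #1 (n = 1), A549 cells with the hairpin shNEDD9 #2 (n = 1), A549 control cells (n = 1), CRL-5907 cells with NEDD9 overexpression (n = 1) and CRL-5907 control cells (n = 1). A549 is an established lung adenocarcinoma line which, per the submitters, has a loss-of-function mutation of LKB1 and raised NEDD9. CRL-5907 also derives from lung cancer, and the submitters give its LKB1 as wild type and its NEDD9 as low. The labels do not say what construct, if any, the control cells carried, nor whether the arrays came from separate cultures. The description of the hairpin 2 array writes NEDD10, but its title and source name give NEDD9, which was followed here. The 2 hairpins are treated as replicates of knockdown and their spread may be technical.

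Septins bind GTP, pair through their GTP-binding domains and join end to end into complexes that polymerise into filaments and rings on membranes, actin and microtubules. They are best known for the ring at the division site, where they hold the contractile machinery in place during cytokinesis, and for diffusion barriers such as the one at the base of the cilium. Mammalian septins fall into groups named after SEPTIN2, SEPTIN3, SEPTIN6 and SEPTIN7. A complex takes a subunit from each of several groups, and members of a group can stand in for each other at its position. The SEPTIN7 group has a single protein-coding gene, so SEPTIN7 has no stand-in within its group.

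Each value below is a normalised log2 expression level, and a difference of 1 is a 2-fold change. Levels of different genes come from different probes and are not set against each other. NEDD9 followed the labels in direction, but its lowering with the hairpins was partial. It was at 0.67-fold with hairpin 1 (-0.59) and 0.75-fold with hairpin 2 (-0.41), the latter short of a 1.5-fold reduction. Its level was 8.35 with hairpin 1 and 8.52 with hairpin 2, against 8.94 in the A549 control, and 9.49 with overexpression against 4.66 in the CRL-5907 control. Arrays of the same line correlated across features at r = 0.989 to 0.991 and arrays of different lines at 0.948 to 0.953. The 5 epithelial markers lay above the array median on every array, and none of the 4 endothelial markers did. Of the 4 leukocyte markers measured, PTPRC and CD3E were below the median on every array, while CD68 and CD14 gave 1 or 2 above it. Of 5 fibroblast markers only COL1A1 passed, on both CRL-5907 arrays. The lung lineage genes SFTPB and SFTPC were below the median on all 5 arrays.

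SEPTIN7, the sole occupant of its position in septin complexes, was the member furthest from control with knockdown. Its log2 level was 7.19 with hairpin 1 and 7.19 with hairpin 2, against 6.31 in the A549 control. Both hairpin arrays were thus higher than the control by almost the same amount. The differences were 0.88 with hairpin 1 and 0.88 with hairpin 2, a mean of 0.88 ± 0.0012 (SD, n = 2) or 1.84-fold. Both subtract the same single control array, whose error this SD leaves out. Across genes of a like level the difference between the 2 hairpin arrays had an SD of 0.153. Ranked by the smaller of its 2 hairpin differences, SEPTIN7 was 11th highest of the 7473 genes that passed the level filter in A549 (the brightest array of a comparison must exceed the median of its features with 1 symbol). This position was known when the family was chosen and is a description.

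In CRL-5907 the SEPTIN7 level was 5.49 with overexpression, against 5.16 in the control. The difference of 0.33 compares values that both lay below the array medians of 5.70 and 5.69, where signal was not shown to exceed background. Between the controls it stood at 6.31 in A549 against 5.16 in CRL-5907, a difference of 1.15 or 2.21-fold, whose size is uncertain because the CRL-5907 value is below its array median.

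The genome holds many copies of SEPTIN7, and probes for it can pick up their transcripts. RefSeq lists 15 SEPTIN7 pseudogenes, 5 of them transcribed, so the SEPTIN7 values are uncertain to that extent. The pseudogene SEPTIN7P11 has a feature of its own, looked up after the septin values were seen. It read 4.68 and 4.90 with the hairpins, against 4.89 in the A549 control, and 4.89 with overexpression against 4.91 in the CRL-5907 control. All of these lay below the array medians. The part of the other copies in the SEPTIN7 signal was not tested. The nearest RefSeq neighbours of SEPTIN7 with a feature were likewise added later. HERPUD2 was at 0.17 and 0.14 with the hairpins and EEPD1 at -0.09 and -0.0028. EEPD1 lay below the array median on every array, so its small differences do not show an unchanged level.

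SEPTIN7 was the member furthest from control with knockdown, and SEPTIN10 with overexpression. Their RefSeq promoter windows (GRCh38.p14, 250 bases before to 50 after an annotated start) are shown for that reason, with capitals on every match to a searched motif. SEPTIN7 has 3 annotated starts, of which the most upstream is printed, at chr7:35800736-35801035 on the plus strand. SEPTIN10 has 1, at chr2:109613917-109614216 on the minus strand.
SEPTIN7: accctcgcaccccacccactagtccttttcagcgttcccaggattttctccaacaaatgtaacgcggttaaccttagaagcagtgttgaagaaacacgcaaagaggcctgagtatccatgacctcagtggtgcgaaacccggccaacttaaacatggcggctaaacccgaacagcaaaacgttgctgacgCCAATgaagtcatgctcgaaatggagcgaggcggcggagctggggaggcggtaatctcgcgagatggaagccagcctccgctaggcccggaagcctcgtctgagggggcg
SEPTIN10: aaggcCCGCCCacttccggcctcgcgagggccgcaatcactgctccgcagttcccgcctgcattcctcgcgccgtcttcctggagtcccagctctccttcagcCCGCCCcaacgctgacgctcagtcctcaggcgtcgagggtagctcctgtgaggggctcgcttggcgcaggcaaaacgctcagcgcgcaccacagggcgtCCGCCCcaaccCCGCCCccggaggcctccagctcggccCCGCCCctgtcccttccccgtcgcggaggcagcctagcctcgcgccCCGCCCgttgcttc
Both strands were searched for the CRE (TGACGTCA), the CCAAT box (CCAAT), the GC box (GGGCGG) and the E box (CACGTG). These motifs were found in 1.85%, 34.6%, 45.0% and 7.26% of 35116 promoter windows of the same length. The SEPTIN7 window held 1 CCAAT box and none of the others, and the SEPTIN10 window held 6 GC boxes and none of the others. The windows at the other SEPTIN7 starts overlap the first. The next one held 1 GC box and 1 CCAAT box, and the last held 2 GC boxes. The GC content was 56.3% for SEPTIN7 and 72% for SEPTIN10, against a median of 58.7%, and the CG dinucleotides numbered 22 and 33, against a median of 14. The first 140 bases of the SEPTIN7 window also belong to the window of the divergent transcript SEPTIN7-DT. These matches describe the letters of the windows and not binding.

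**Figure D1:**
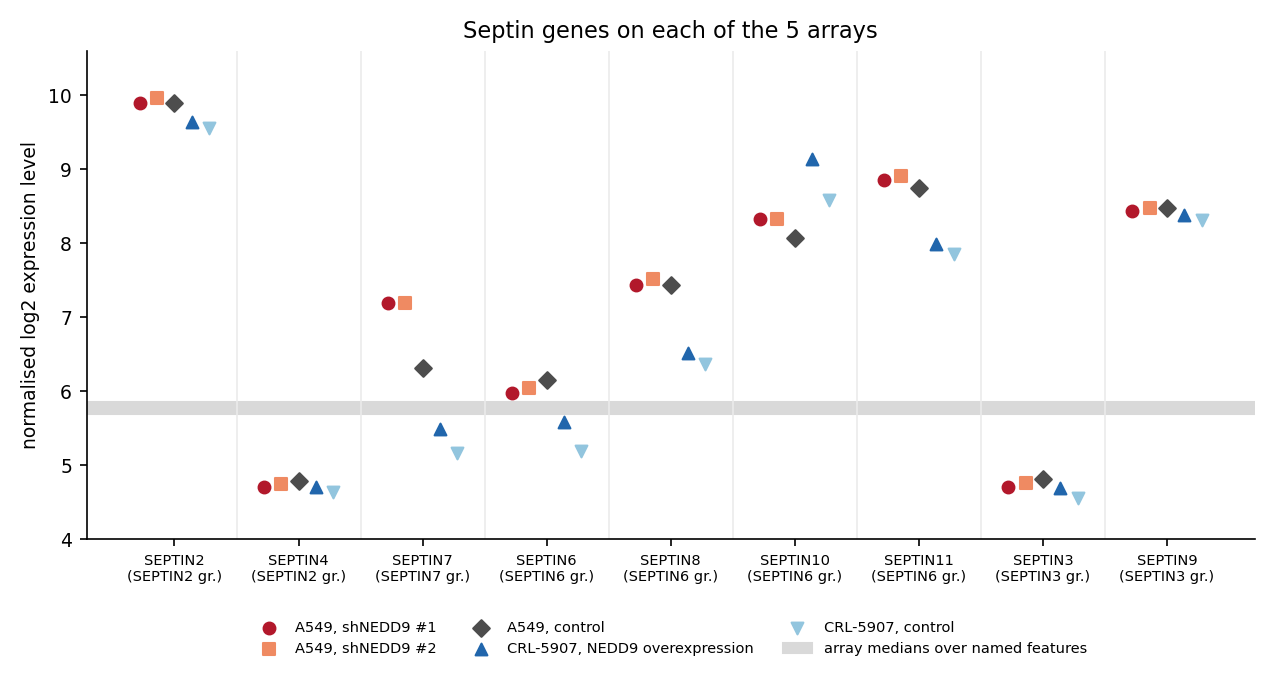
Normalised log2 expression level (vertical axis) of the 9 septin genes on each of the 5 arrays, 1 point per array, with the range of the array medians over named features as a grey band. The SEPTIN7 points of both hairpins (7.19) sit above the A549 control (6.31), and the 3 A549 points of SEPTIN10 lie below both CRL-5907 points. Heights of different genes are not comparable.

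In the SEPTIN6 group, whose members can replace each other in the complex, SEPTIN10 differed in direction from SEPTIN6, SEPTIN8 and SEPTIN11 between the lines. Its level was 8.32 and 8.32 with the hairpins, against 8.07 in the A549 control. The hairpin arrays were higher by 0.25 and 0.25 (mean 0.25 ± 0.0013, SD, n = 2), or 1.19-fold, where the spread between hairpin arrays at that level was 0.142. With overexpression SEPTIN10 was at 9.14, against 8.58 in the CRL-5907 control. This difference of 0.56, or 1.48-fold, was the largest among the 9 members with overexpression and fell just short of the 1.5-fold used for counting (0.58 on the log2 scale). SEPTIN10 was also the only 1 of the 9 members lower in the A549 control than in the CRL-5907 control, by -0.50. SEPTIN14, of the same group but not among the 9, was likewise lower in A549 (-0.64), with both values below the array medians.

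SEPTIN11, another filament-forming member of the SEPTIN6 group, had levels of 8.85 and 8.91 with the hairpins, against 8.74 in the A549 control. These differences of 0.11 and 0.16 were close to the spread of 0.16 between hairpin arrays. Its level was 7.99 with overexpression, against 7.86 in the CRL-5907 control, a difference of 0.13 with a like spread of 0.142. Between the controls it differed by 0.88, or 1.85-fold higher in A549.

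SEPTIN8, of the same group, was at 7.44 and 7.52 with the hairpins, against 7.44 in the A549 control. Hairpin 1 and the control had exactly the same value, which the normalization can produce, so that a difference of 0 does not show an unchanged level. With overexpression SEPTIN8 was at 6.52, against 6.37 in the CRL-5907 control, a difference of 0.16 where the spread was 0.161. The A549 control exceeded the CRL-5907 control by 1.07, or 2.10-fold.

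SEPTIN6, the namesake of the group, was at 5.98 and 6.04 with the hairpins, against 6.15 in the A549 control. Both differences, -0.17 and -0.11, were within the spread of 0.177. With overexpression its level was 5.58, against 5.20 in the CRL-5907 control, a difference of 0.39 between values that both lay below their array medians. SEPTIN6 was higher in the A549 control than in the CRL-5907 control by 0.95. SEPTIN6, SEPTIN8 and SEPTIN11 were thus higher in A549 by 0.88 to 1.07, and SEPTIN10 was lower.

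In the SEPTIN2 group, SEPTIN2, a widely expressed subunit that binds actin-associated myosin, differed from its controls by less than the spread between hairpin arrays. Its level was 9.90 and 9.96 with the hairpins, against 9.89 in the A549 control, and 9.64 with overexpression, against 9.56 in the CRL-5907 control. The hairpin differences of 0.0069 and 0.07 and the overexpression difference of 0.08 compare with a spread of 0.129. Between the controls SEPTIN2 was 0.33 higher in A549, or 1.26-fold. SEPTIN4, whose ARTS isoform promotes apoptosis, was at 4.71 and 4.74 with the hairpins, against 4.78 in the A549 control, and at 4.71 with overexpression, against 4.64 in the CRL-5907 control. All 5 values were below the array medians, and hairpin 1 and overexpression were exactly equal.

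In the SEPTIN3 group, SEPTIN9, which bundles actin and microtubules and takes part in the longer complexes, was at 8.44 and 8.47 with the hairpins, against 8.47 in the A549 control. Hairpin 2 and the control were exactly equal. Its level was 8.38 with overexpression, against 8.31 in the CRL-5907 control, a difference of 0.07 where the spread was 0.142. SEPTIN3, mainly a neuronal septin, was below the array median on all 5 arrays, with 4.70 and 4.76 with the hairpins, against 4.82 in the A549 control, and 4.70 with overexpression, against 4.56 in the CRL-5907 control. Between the controls SEPTIN9 differed by 0.16, no more than the spread at that level, and SEPTIN3 by 0.26.

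**Figure D2:**
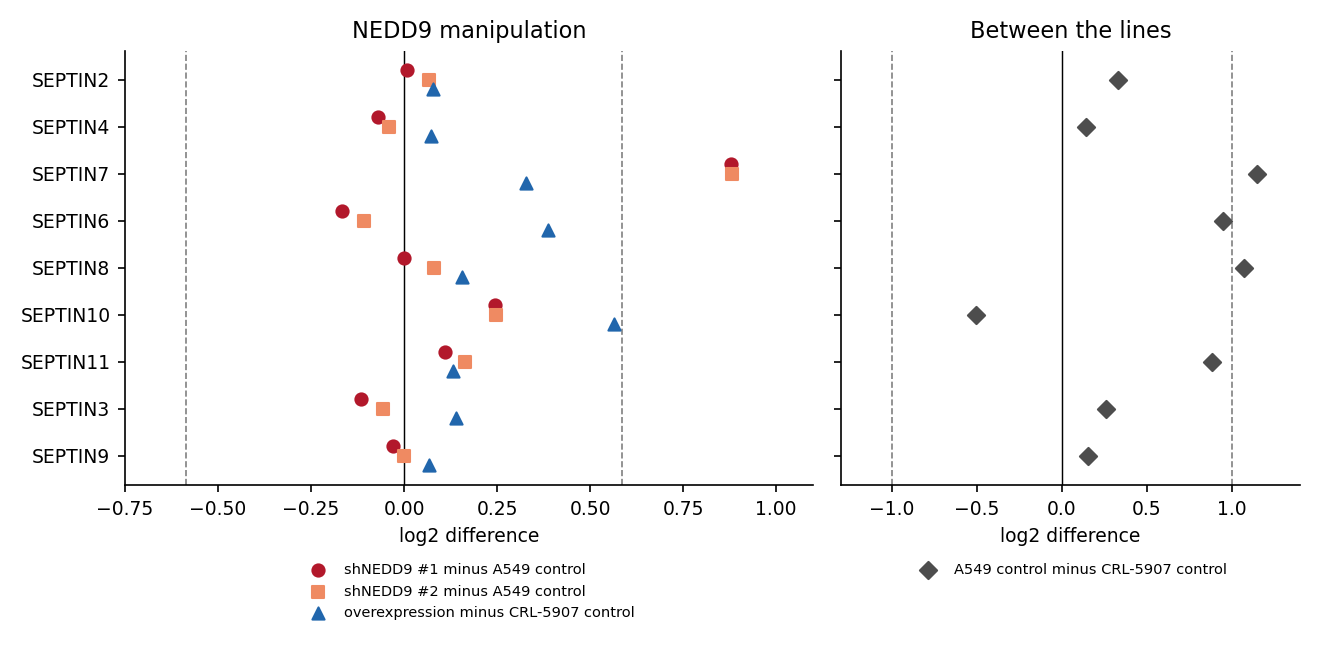
Log2 differences of the 9 septin genes, with each hairpin minus the A549 control and overexpression minus the CRL-5907 control (left), and the A549 control minus the CRL-5907 control (right). Points are single arrays against a single control, and dashed lines mark 1.5-fold (left) and 2-fold (right). SEPTIN7 passes the left line with both hairpins, SEPTIN10 stops just inside it with overexpression, and SEPTIN7 and SEPTIN8 pass the right line.

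Counted over the family, 1 of 9 members, SEPTIN7, lay 1.5-fold or more above control with both hairpins, and none lay 1.5-fold below. The share among all genes that passed the level filter was 0.709% higher (53 of 7473) and 0.134% lower (10 of 7473). SEPTIN3 and SEPTIN4 did not pass the filter in A549. With hairpin 1 the members' median difference was 0.00 (4 higher, 4 lower, 1 equal), beside 0.02 over all 14232 genes. With hairpin 2 it was 0.07 (5 higher, 3 lower, 1 equal), beside 0.00. Over all genes 52.5% were higher with hairpin 1 and 47.8% with hairpin 2. Among genes that passed the filter the medians were 0.10 and 0.04, and these shares were 67.3% and 60.0%. The SEPTIN7 difference of 0.88 was thus not shared by the family median. The limma fit across the 7473 genes called none at an adjusted p under 0.05 (lowest adjusted p = 0.276, Benjamini-Hochberg, 1 residual degree of freedom), which is 0% of genes, septins included. Without adjustment, 1309 genes (17.5%) had a p under 0.05.

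With overexpression no member passed 1.5-fold, where 3.5% of 7406 genes were counted higher and 0.851% lower. All 9 members, of which 5 passed the level filter in CRL-5907, were above control, by 0.07 to 0.56 with a median of 0.14. Except for SEPTIN6, SEPTIN7 and SEPTIN10 these differences lay within the spread between hairpin arrays. Over all genes the median was 0.00 and 48.1% were above control, and over genes that passed the filter 0.05 and 58.7%. Of the septins outside the 9, SEPTIN5 was above control (0.30), SEPTIN1 (-0.14) and SEPTIN14 (-0.55) below, and SEPTIN12 equal. SEPTIN9 turned to -0.02 after a further quantile normalization and to -0.01 once the trend with level was subtracted. With 1 array in each condition these differences have no replicate check.

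Between the controls SEPTIN7 and SEPTIN8 were more than 2-fold higher in A549 than in CRL-5907, and no member was 2-fold lower. Of all 7716 genes that passed the filter, 9.88% were counted higher and 5% lower. SEPTIN8 dropped out after centring of the arrays (1.00 on the log2 scale) and after a further quantile normalization. All 3 A549 arrays were above both CRL-5907 arrays for 7 of 9 members, and below for SEPTIN10, where 30.1% and 20.5% of all 14232 genes did the same (40.6% and 27.2% of the filtered genes). For SEPTIN3 the lowest A549 array (hairpin 1) and the overexpression array both read 4.70. In these bulk samples, fewer cells with a transcript and less transcript per cell cannot be told apart.

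**Figure D3:**
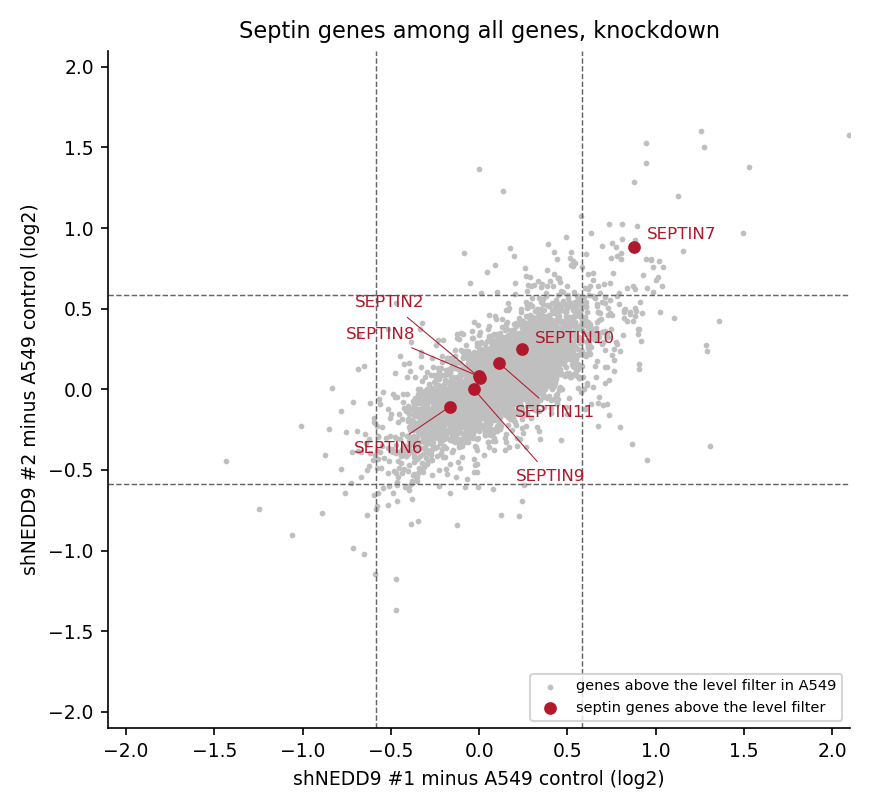
Log2 difference of hairpin 1 (horizontal) and hairpin 2 (vertical) from the same A549 control array, for the 7473 genes that passed the level filter (grey) and the 7 septin genes among them (red), with dashed lines at 1.5-fold. SEPTIN7 lies at 0.88 and 0.88 in the upper right, and the other septins lie within the cloud. The shared control by itself aligns points along the diagonal.

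The 4 other septin genes with a feature of their own were low on most arrays. SEPTIN1, SEPTIN12, a testis septin, and SEPTIN14 lay below the median on all 5 arrays. SEPTIN14 was the most variable of these, at -0.37 and 0.03 with the hairpins and -0.55 with overexpression. SEPTIN5, which is best known from nerve terminals, was at 5.44 and 4.97 with the hairpins, against 5.45 in the A549 control. Its level was 6.28 with overexpression, against 5.98 in the CRL-5907 control, and these were its only values above the array median. Of the 3 neuronal markers measured, SNAP25 was above the median on all 5 arrays and SYP and STMN2 were below it. The hairpins disagreed on SEPTIN5, with differences of -0.01 and -0.48. Between the controls (A549 minus CRL-5907) SEPTIN5 was at -0.53 and SEPTIN14 at -0.64, while SEPTIN12 was at 0.18 and SEPTIN1 at 0.0038.

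The genes with the pattern most like SEPTIN7 were sought by Euclidean distance over the 4 log2 differences, among 6843 genes that passed the filter in both lines. SEPTIN7 itself did not pass it in CRL-5907, so genes as low as SEPTIN7 there were not searched. Its differences that use CRL-5907 arrays are uncertain. The median distance was 1.67. OAT, the mitochondrial ornithine aminotransferase, was nearest at 0.355, with 0.99 and 0.60 with the hairpins, 0.14 with overexpression and 1.12 between the controls. ETFRF1 followed at 0.499, with 0.95 and 0.63 with the hairpins and -0.09 with overexpression. GINS2, a subunit of the replicative helicase complex, was the third at 0.533, with 0.54 and 0.61 with the hairpins and 0.63 with overexpression. The CRL-5907 control value of GINS2 (5.20) lay below the array median of 5.69, so its differences from that control are uncertain in size. The 4 differences come from 5 arrays and share controls, so likeness here is a description of the arrays.

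Genes that work with septins were described from 4 lists. The contractile ring and midbody list was the one whose members were mostly above control in both lines. Of its 20 genes 15 were measured, of which 12 passed the level filter in A549 and 9 in CRL-5907. The counts and medians that follow include the measured genes that did not pass. Of the 15 measured genes 13 were higher with both hairpins and 2 lower with both (medians 0.20 and 0.25). With overexpression 13 were higher (median 0.21). Over all genes the medians were 0.02, 0.00 and 0.00, 39.6% were higher with both hairpins and 48.1% with overexpression. Over genes that passed the filter the medians were 0.10, 0.04 and 0.05, and these shares were 53.8% and 58.7%. None passed 1.5-fold with both hairpins, beside the 0.709% above. PLK1, a mitotic kinase, was furthest among those above the level filter, at 7.58 and 7.87 against 7.06 in the A549 control. That is 0.51 and 0.81. Among genes above the level filter, hairpin 2 alone took 3 of the list past 1.5-fold. They were PLK1, PRC1, which bundles midzone microtubules (0.67), and ANLN, the anillin that links septins to the ring (0.85). ANLN passed the filter only through the hairpin 2 array itself (6.26). Its values with hairpin 1 (5.83) and in the A549 control (5.41) lay below the array medians, so the size of its difference is uncertain. CEP55 (0.94) was past 1.5-fold with hairpin 2 too but did not pass the filter. Of all genes that passed the filter, hairpin 2 alone took 1.35% past 1.5-fold. With overexpression ECT2, the RhoA activator at the midzone, was at 7.07 against 5.97 in the CRL-5907 control (1.09), and PLK1 was at 5.90 against 4.90 (1.00), a control value below the array median of 5.69. Both passed 1.5-fold, beside 3.5% of genes. PRC1 (2.05), PLK1 (2.16) and the myosin heavy chain gene MYH10 (1.11) were over 2-fold higher in the A549 control than in the CRL-5907 control, beside 9.88% of genes. The CRL-5907 control values of PRC1 (4.55) and PLK1 lay below the array median, so signal there was not shown to exceed background and these sizes are uncertain.

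The Borg proteins, which bind septins and the GTPase CDC42, showed no member past 1.5-fold with either manipulation (medians 0.02 and -0.04 with the hairpins and -0.04 with overexpression). CDC42EP1 was furthest with knockdown (0.40 and 0.23) and CDC42 itself with overexpression (-0.09). CDC42EP2 was at 7.13 in the A549 control against 8.32 in the CRL-5907 control (-1.18). Among 10 septin binding partners none passed either, with medians of 0.01, -0.01 and 0.01 in the same order. XIAP, the apoptosis inhibitor that ARTS binds, was at 0.47 and 0.25 with the hairpins. MAP4, a microtubule-associated protein that SEPTIN2 binds, was furthest with overexpression at 0.15. STIM1, the calcium sensor of store-operated entry, was higher in the A549 control by 1.13.

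Of 11 measured genes of actin filaments none passed with knockdown, where the medians were -0.04 and 0.02 and CNN3, a calponin, was furthest at 0.30 and 0.14. With overexpression CNN3 was at 8.15 against 7.13 in the CRL-5907 control, a difference of 1.03, and was the only one past 1.5-fold. In the A549 control ACTB (2.85), TPM2 (2.18), TPM1 (1.19) and ACTN1 (level 10.13 against 8.83) were over 2-fold higher than in the CRL-5907 control. ACTB has many near-identical copies in the genome and is uncertain.

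**Figure D4:**
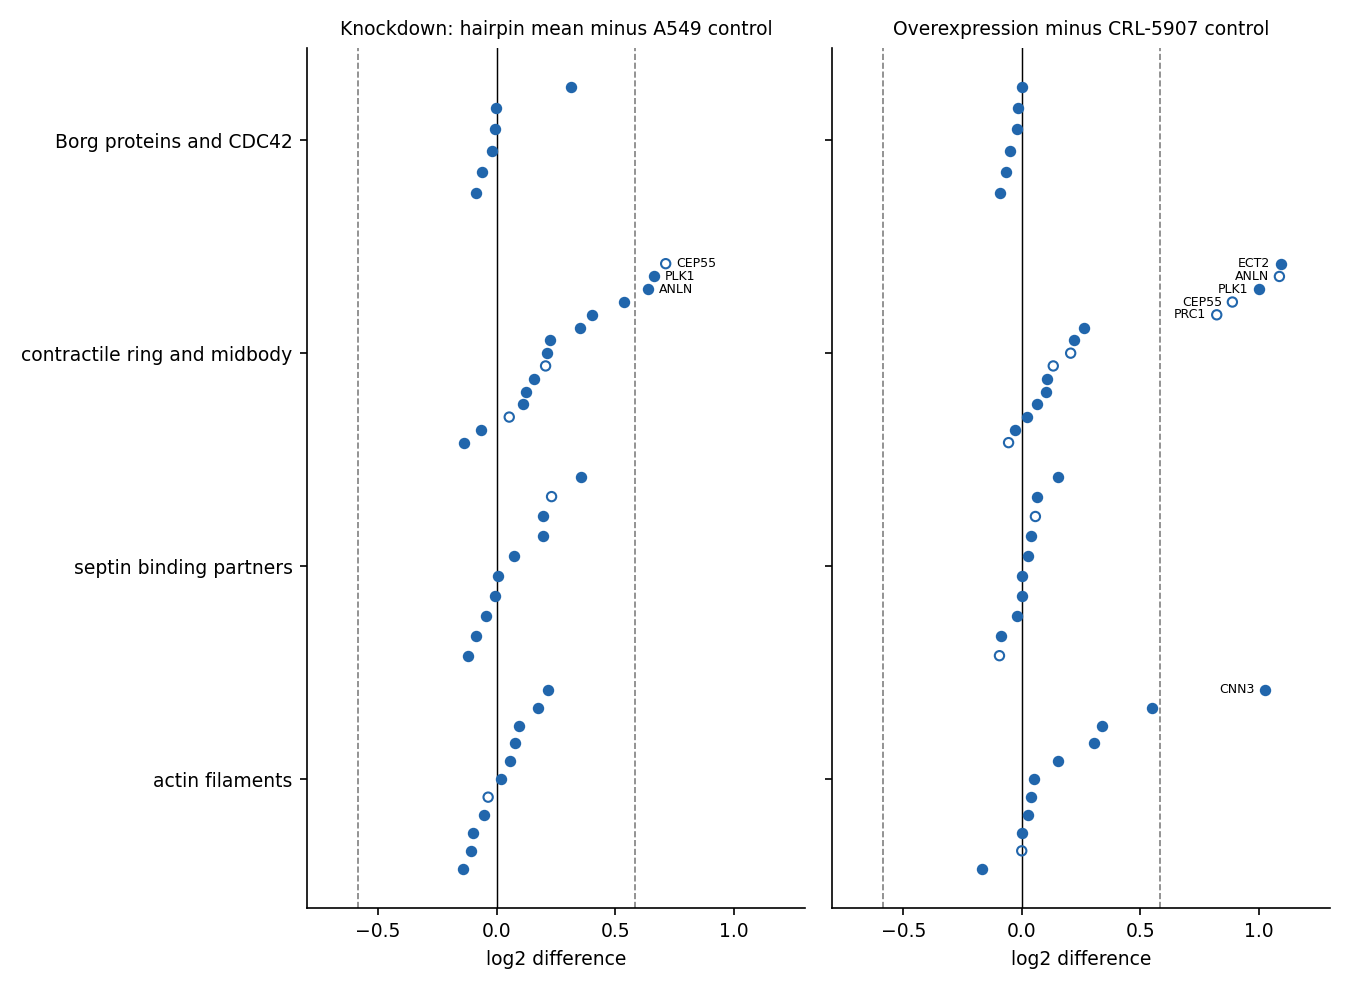
Log2 differences of the measured genes of the 4 partner lists with knockdown (left, mean of both hairpins minus the A549 control) and with overexpression (right, minus the CRL-5907 control). Points are genes, open where the level filter was not passed, and dashed lines mark 1.5-fold. ECT2, PLK1 and CNN3 are the filled points beyond the line with overexpression, and PLK1, ANLN and CEP55 (open) cross it with knockdown in the mean of the hairpins, though not with hairpin 1 alone (PLK1 0.51).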

How the data were processed

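Total RNA was hybridised to 1 exon array per sample. The authors deposited log2 values of 22011 features on 5 arrays. The submitters' processing notes name RMA and Affymetrix Power Tools. Versions and genome build are not given in the sources used here. RMA corrects background, quantile-normalizes arrays and summarises probes, and can give several arrays exactly equal values: 36.0% of genes had such a pair, among them 3 of 9 septins. Scanner files were not used here, so detection per feature is unknown, and array number limits precision.

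The platform annotation gave 14432 features 1 symbol, 2408 several and 5171 none. Only the first kind was used. Of these 14404 matched RefSeq by Entrez number and no symbol changed. 1 further feature names SEPTIN5 beside GP1BB and was not used.

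Differences were taken from the control array of the same line. Counts use 1.5-fold (2-fold between lines) and the level filter. For knockdown a model across all filtered genes was fitted in R 4.3.3 with limma 3.58.1 (eBayes with a trend, Benjamini-Hochberg). The requirements set for a run on simulated data concerned the fold rule and the fitted differences, not the limma calls. A lack of limma calls therefore does not show a lack of change. The spread quoted beside a difference is the SD of hairpin 1 minus hairpin 2 in its bin of 20 bins of level. It includes true differences between hairpins. Septins and lists were chosen with earlier results of these data known. The text names NEDD9, every septin, list members past the fold rule or furthest from control, and the 3 genes nearest to each septin past 1.5-fold with both hairpins or with overexpression. Alternatives were other scalings, filters, thresholds, limma settings and leaving out a hairpin. The promoter of SEPTIN3 was not used here.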

Additional observations from a re-analysis of the deposited data

How the results depend on the processing

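SEPTIN7 was the only septin counted with knockdown under every scaling, filter and single hairpin tried, at 0.78 to 0.88 on the log2 scale. At 2-fold the count was 0. The overexpression count of 0 became 1 (SEPTIN10) at 1.3-fold and stayed 0 elsewhere. The count of 2 between the lines was 1 with centred arrays, with a further quantile normalization (SEPTIN7 in both) and with a level filter at the 75th percentile (SEPTIN8), 4 at 1.5-fold and 0 at 4-fold. The cause was not tested. For the partner lists, the knockdown count of 0 ranged from 0 to 3 when 1 hairpin was left out, and the overexpression count of 3 was 6 with no level filter, since more genes entered. limma called 0 genes in each of its 4 other settings, with 1204 to 2220 at an unadjusted p under 0.05. Of 118 septin differences under an alternative, 8 turned sign, all of them of SEPTIN2, SEPTIN8 or SEPTIN9. Further quantile normalization moved the median of filtered genes with hairpin 1 to -0.0033, against 0.10 before. Of the genes counted, the share higher was 69.0% after it for knockdown (84.1% before), 62.9% for overexpression (80.4% before). No paired analysis was possible because only the hairpin arrays carry numbers and both share 1 control.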
